A study of Mus musculus with 12 samples.

Results

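Hypothalamic RNA of obese mice that had received celastrol was compared with that of obese mice that had received DMSO, the vehicle, on 8 of the 12 arrays of the series. All mice were C57BL/6J males, 23 weeks old at sampling. They ate a diet with 45% fat for 20 weeks from the age of 3 weeks. Every mouse, controls included, was first given DMSO intraperitoneally on 4 days. Over the next 4 days a daily injection brought either more DMSO, or 100 µg/kg of celastrol, or 2 mg/kg of withaferin A. Each group held 4 biological replicates with 1 array each. The withaferin A arrays entered the estimate of the spread and serve here as a second treated group. No lean, untreated or food-matched mice were analysed here, so the comparison is of compound against vehicle in obese animals only. A gene entered the comparison when its probe set carried a single gene symbol and its mean log2 signal over the 12 arrays reached the 25th percentile, 5.81. That left 14953 genes of 19938.

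The hypothalamus holds the neurons that sense leptin, glucose and hormones and set food intake, body temperature and the release of pituitary hormones, and it does so together with astrocytes, tanycytes, oligodendrocytes, microglia and a dense bed of vessels. Celastrol is a triterpenoid from the root of the thunder god vine known to make obese mice eat less and lose weight. The RNA came from whole tissue, so fewer cells of a type and less RNA per cell cannot be told apart.

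A gene is said here to have risen or fallen when limma's moderated test gave an adjusted p under 0.05 over the 14953 genes. By that rule 115 genes passed, 0.769% of those tested. The 68 genes that rose (0.455%) had a median log2 change of 0.70, with a range from 0.28 to 3.45. The 47 that fell (0.314%) had a median of −0.42, with a range from −1.003 to −0.26. Risers reached larger sizes than fallers: 13 rose at least 2-fold and 1, Opalin, fell that far. Over all tested genes the median change was −0.017, and 57.4% lay below 0. In each of the 115 genes the celastrol and DMSO arrays did not overlap. The genes were selected by their p on these same arrays, so this separation follows largely from the selection. The same holds where it is given for single genes below. Of all tested genes 7.21% showed no overlap in either direction, with every celastrol array higher in 2.71% and lower in 4.5%. Of the 115, 30 were set aside because they lead the response or belong to glucocorticoid-responsive, STAT3 and similar marker lists, with Lcn2, Zbtb16, Fkbp5, Opalin and Dbp among them. The account below turns on the other 85, of which 53 rose and 32 fell. They were sorted by function after their values were seen. The marker lists need not be complete, and whether some of the 85 also respond to glucocorticoids or STAT3 was not tested.

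**Figure D1:**
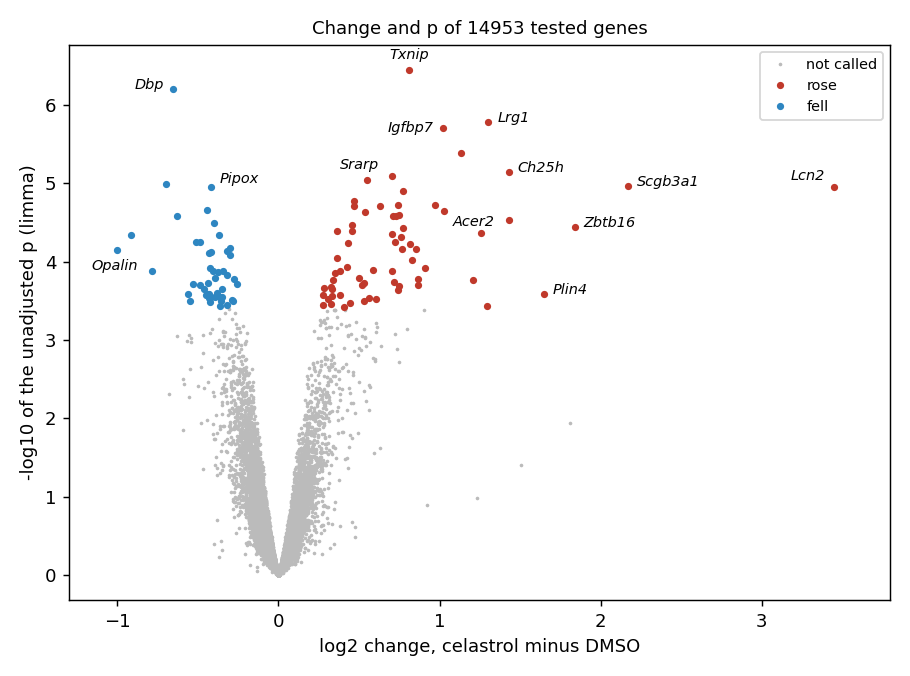
Each point is 1 of 14953 genes, with its log2 change (celastrol minus DMSO, n = 4 arrays per group) on the x axis and −log10 of limma's unadjusted p on the y axis; coloured points have an adjusted p under 0.05. The 68 rising genes spread out to 3.45, while the 47 falling genes lie between −1.003 and −0.26.

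Among markers of tissues next to the hypothalamus, those of the pituitary were separated between the DMSO and celastrol arrays. Of 12 pituitary markers 8 were tested, and all 8 had changes above 0, against 42.6% of all tested genes, though none passed the test. Their mean over the DMSO mean ran from −0.13 to 0.09 on the DMSO arrays. It was 0.33, 1.62, 0.31 and 0.30 on celastrol replicates 1 to 4. On withaferin A replicates 1 to 4 it was 0.08, 0.34, 0.32 and 0.10, so the treated groups overlapped. The summed log2 signal of the list was 57.3 to 59.1 with DMSO and 60.8 to 71.3 with celastrol. The signal of Gh, the growth hormone gene, was 10.96 on celastrol replicate 2 and at most 7.98 on the other celastrol arrays. Thalamus markers overlapped between the groups, with list means of −0.36 to 0.48 and −0.11 to 0.65. Of the lists for cell types of the brain, the means of oligodendrocyte, endothelial and pericyte markers lay lower on every celastrol array than on every DMSO array. For pericytes and smooth muscle they were −0.01 to 0.03 with DMSO and −0.07 to −0.04 with celastrol, and the part of these shifts in the gene results was not tested. With the pituitary score as a covariate, an analysis added after the data were seen, the changes of the 115 genes kept their signs at 0.667 to 1.38 times their size. None of the 14953 genes passed limma's test in that fit. An unadjusted p under 0.05 was reached by 1368 genes, against 1561 without the covariate. The score was higher on every celastrol array than on every DMSO array, so this fit cannot fully separate it from treatment. Without celastrol replicate 2, 17 genes passed, 16 of them among the 115.

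Leaving out any one array changed sizes little and calls much. The log2 change of each of the 115 genes stayed between 0.794 and 1.19 times its value with any 1 array removed. Of the 115 calls, 19, 6, 56 and 32 were kept without DMSO replicates 1, 2, 3 and 4, and 58, 16, 11 and 63 without celastrol replicates 1, 2, 3 and 4. All 115 were kept without withaferin A replicate 1, when 207 genes passed. The genes kept without DMSO replicate 2 were Txnip, Igfbp7, Pipox, Angptl4, Dbp and Lrg1. Only Txnip, Igfbp7, Dbp and Lrg1 kept their call in each of the 12 fits that left out 1 array, with a highest adjusted p of 0.0288, 0.041, 0.0328 and 0.041. Every other gene named below as risen or fallen lost its call without at least 1 DMSO or celastrol array.

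**Figure D2:**
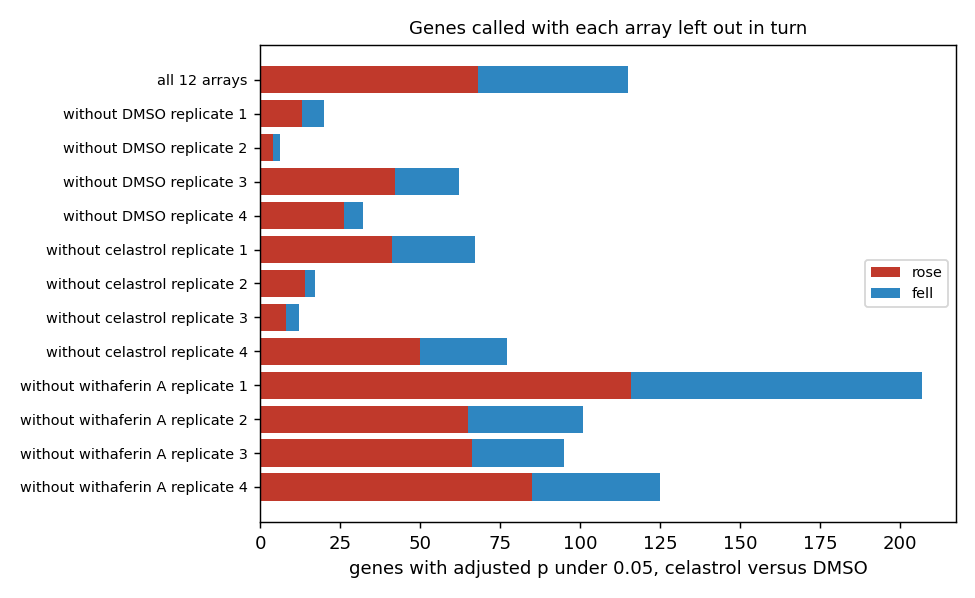
Bars give the number of genes with an adjusted p under 0.05 for celastrol versus DMSO with all 12 arrays and with each array left out in turn, split into genes that rose and fell. The count of 115 drops to 6 without DMSO replicate 2 and to 12 without celastrol replicate 3, and reaches 207 without withaferin A replicate 1.

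Genes sorted under energy sensing and restraint of growth or inflammatory signals moved in both directions, 6 up and 3 down. The risers include Nfkbia, the inhibitor of NF-κB, and Zfp36, an RNA decay factor. Txnip gave the smallest p of all genes. It codes for an arrestin-like protein that binds thioredoxin and limits glucose uptake, and its log2 signal was 8.48, 8.52, 8.82 and 8.73 on DMSO replicates 1 to 4 and 9.42, 9.50, 9.42 and 9.45 on celastrol replicates 1 to 4. The 4 celastrol values lay within 0.09 of each other, all above the highest DMSO value. The rise was 0.81 ± 0.09 (SE, n = 4 per group, adjusted p = 0.00463), or 1.76-fold. Arrdc2, an arrestin-domain relative of Txnip, rose by 0.70 ± 0.12 (adjusted p = 0.0191), and Ddit4, an inhibitor of the growth kinase mTORC1, by 0.74 ± 0.15 (adjusted p = 0.0403). Zfp36 codes for tristetraprolin, which binds AU-rich messenger RNAs and speeds their decay. Its signal was 6.45, 6.33, 6.27 and 6.44 with DMSO and 6.70, 6.94, 6.82 and 6.92 with celastrol. Celastrol replicate 1 was the lowest of its group and still exceeded each control, and the rise was 0.47 ± 0.07 (adjusted p = 0.0158).

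Brakes on receptor tyrosine kinases did not move together. Errfi1, an inhibitor of the epidermal growth factor receptor, rose by 0.53 ± 0.11 (adjusted p = 0.045). Fgfrl1, a fibroblast growth factor receptor that lacks the kinase domain, gave signals of 8.23, 8.46, 8.35 and 8.30 on the DMSO arrays and 8.03, 7.84, 7.85 and 7.91 on the celastrol arrays. The groups were apart by 0.20 at their nearest values, and Fgfrl1 fell by 0.43 ± 0.08 (adjusted p = 0.0325). Spred3, a Sprouty-related inhibitor of Ras signalling, gave 8.59, 8.81, 8.77 and 8.64 with DMSO and 8.43, 8.43, 8.35 and 8.31 with celastrol. All celastrol values were below all DMSO values, and the fall was 0.32 ± 0.06 (adjusted p = 0.0345). Trib2, a Tribbles pseudokinase, fell by 0.43 ± 0.09 (adjusted p = 0.0454). In a list of 19 tested MAP kinase phosphatases and Sprouty-type brakes, Errfi1 rose, Spred3 fell and 17 did not pass, with a median change of −0.12 against −0.017 over all genes. Without DMSO replicate 2, Txnip alone kept its call among the 9 genes of this group, and the adjusted p of the group ran from 0.0202 to 0.139.

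Among genes of the vessel wall, cell adhesion and matrix, 7 rose and 3 fell. Igfbp7, a secreted binding protein for insulin-like growth factors that is abundant in vessel walls, had signals of 10.58, 10.56, 10.60 and 10.63 on the DMSO arrays and 11.67, 11.82, 11.83 and 11.15 on the celastrol arrays. The DMSO arrays were nearly level and celastrol replicate 4 was the lowest of the treated arrays, 0.51 above the nearest control. The rise was 1.02 ± 0.13 (adjusted p = 0.00739), or 2.03-fold. Of 11 tested members of the insulin-like growth factor list Igfbp7 was the one that passed, 10 had values above 0 and the median was 0.13. Over all tested genes 0.455% rose and 42.6% lay above 0. F3, the tissue factor that starts coagulation, gave 9.91, 9.81, 9.76 and 10.06 with DMSO and 10.56, 10.89, 10.58 and 10.59 with celastrol. Celastrol replicate 2, the array with the highest pituitary score, was also the highest for F3, and the other treated arrays still lay 0.51 or more above the controls. F3 rose by 0.77 ± 0.12 (adjusted p = 0.0146), and by 0.69 without celastrol replicate 2. Vwf, the von Willebrand factor gene, had a change of 0.48 ± 0.11 (adjusted p = 0.066), and 20 of 21 coagulation and fibrinolysis genes did not pass.

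Rhoj, a small GTPase of endothelial cells, had signals of 8.39, 8.25, 8.42 and 8.37 on the DMSO arrays and 9.12, 9.09, 9.17 and 9.05 on the celastrol arrays. The treated values spanned 0.12 and stood well clear of the controls, and the rise was 0.75 ± 0.12 (adjusted p = 0.0158). Fn1, the fibronectin gene, rose by 0.76 ± 0.13 (adjusted p = 0.0198), Tgm2, a transglutaminase that cross-links matrix proteins, by 0.59 ± 0.11 (adjusted p = 0.0326), and Podxl, the surface sialomucin podocalyxin, by 0.35 ± 0.07 (adjusted p = 0.0333). Adamts9, a secreted metalloprotease that cleaves versican, rose by 0.72 ± 0.14 (adjusted p = 0.0381). The gene has 5 further probe sets, and their changes ran from 0.40 to 1.24, in the same direction. These read the same RNA and are not separate samples. It was the one member to pass in a list of 50 ADAM, ADAMTS, MMP and TIMP genes, whose median was 0.0035.

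Cav1, the coat protein of caveolae, moved the other way. Its signal was 7.84, 7.89, 7.77 and 7.86 with DMSO and 7.38, 7.56, 7.47 and 7.58 with celastrol. Every treated array was below every control, and the fall was 0.35 ± 0.07 (adjusted p = 0.0326). Tek, the angiopoietin receptor, and the protocadherin gene Pcdhb3 also fell, by 0.55 ± 0.11 and 0.36 ± 0.07 (adjusted p = 0.045 and 0.0433). Pcdhb3 belongs to a cluster of closely related genes whose transcripts a probe set may not separate. The endothelial marker list was not raised as a whole: its mean over DMSO was −0.01 to 0.01 on the DMSO arrays and −0.11 to −0.03 on the celastrol arrays, with Slc2a1 up, Tek down and 13 of 15 members not passing. Of the 15, 9 were below 0 and 6 above. The uncalled member with the smallest p was Kdr, with −0.63 ± 0.15 (adjusted p = 0.0787). Of the 10 genes of this group, Igfbp7 alone kept its call without DMSO replicate 2, and 3 kept it without celastrol replicate 2.

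Lipid and intermediary metabolism supplied 14 risers and 4 fallers. Acer2, an alkaline ceramidase of the Golgi that turns ceramide into sphingosine, gave 7.81, 7.88, 8.01 and 7.90 on the DMSO arrays and 9.06, 9.07, 9.14 and 8.42 on the celastrol arrays. Celastrol replicate 4 stood below the other treated arrays and 0.41 above the highest control. The rise was 1.03 ± 0.16 (adjusted p = 0.0158), or 2.04-fold. A second probe set of Acer2, with a dimmer signal, had a change of −0.07 ± 0.11, so the probe sets of this gene disagreed. None of the other 30 tested sphingolipid genes passed, and the list had a median of −0.021. Smox, which oxidises spermine to spermidine, had signals of 9.80, 9.82, 9.96 and 9.79 with DMSO and 10.46, 10.36, 10.49 and 10.21 with celastrol. The groups were separated by 0.26, and Smox rose by 0.54 ± 0.09 (adjusted p = 0.0158).

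Single genes of lipid breakdown were among the risers. Lipe, the hormone-sensitive lipase gene, rose by 0.28 ± 0.06 (adjusted p = 0.0476), and Pnpla7, a lysophospholipase gene, by 0.43 ± 0.08 (adjusted p = 0.0325). Pnpla2, the adipose triglyceride lipase gene, had a change of 0.64 ± 0.16 (adjusted p = 0.0889). The lipolysis gene Abhd5 went the other way, with −0.19 ± 0.07 (adjusted p = 0.2985). In the list of 20 lipid droplet and lipolysis genes, Lipe and the lipid droplet coat gene Plin4 rose and 18 did not pass, with a median of 0.013. Phyhd1, a relative of the peroxisomal phytanoyl-CoA hydroxylase, rose by 0.77 ± 0.13 (adjusted p = 0.0184). Adipor2, an adiponectin receptor, rose by 0.53 ± 0.10 (adjusted p = 0.0381), and Gpt2, the mitochondrial alanine transaminase, by 0.32 ± 0.07 (adjusted p = 0.0474). Smaller rises were those of Cyp1b1, a steroid-metabolising cytochrome P450, at 0.28 ± 0.06 and Plcd4, a phosphoinositide phospholipase, at 0.28 ± 0.06 (adjusted p = 0.0431 and 0.0397).

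Pipox, the peroxisomal oxidase of sarcosine and pipecolic acid, had the smallest p of the 32 falling genes described here. Its signal was 6.94, 6.93, 7.13 and 7.13 on the DMSO arrays and 6.66, 6.58, 6.53 and 6.68 on the celastrol arrays. The DMSO arrays all exceeded 6.9 and the celastrol arrays all stayed under 6.7. The fall was 0.42 ± 0.06 (adjusted p = 0.0141), and Pipox was the one gene of these 32 to keep its call without DMSO replicate 2. It lost it without celastrol replicate 2 (adjusted p = 0.0524) and without celastrol replicate 3. Pltp, which transfers phospholipids between lipoproteins, fell by 0.46 ± 0.09 (adjusted p = 0.0403), and Arsg, a lysosomal sulfatase, by 0.29 ± 0.06 (adjusted p = 0.0448). Of the 18 genes of this group, 2 kept their call without DMSO replicate 2 and 2 without celastrol replicate 3.

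Of the called genes 5 code for membrane transport proteins, 4 that fell and 1 that rose. The riser was Slc2a1, the glucose transporter of the blood-brain barrier, at 11.51, 11.47, 11.69 and 11.72 with DMSO and 12.23, 12.30, 12.44 and 12.40 with celastrol. No treated value fell below 12.2 and no control exceeded 11.8. The change was 0.75 ± 0.15 (adjusted p = 0.0384), and it was the one member to pass in a list of 22 glycolysis and lactate genes with a median of −0.012. Slc6a6, the taurine transporter, gave 10.31, 10.21, 10.26 and 10.28 on the DMSO arrays and 9.98, 9.89, 9.67 and 9.86 on the celastrol arrays. Celastrol replicate 3 was the lowest array, and the fall was 0.42 ± 0.07 (adjusted p = 0.0234). Slc38a3, which carries glutamine out of astrocytes, gave 10.32, 10.24, 10.36 and 10.39 with DMSO and 9.96, 9.97, 9.86 and 9.91 with celastrol. The nearest values of the groups were 0.27 apart, and Slc38a3 fell by 0.40 ± 0.08 (adjusted p = 0.0326). They were the 2 members that passed among 41 amino acid transporters, of which 29 were below 0 and the median was −0.035. Among all tested genes 0.314% fell and 57.4% lay below 0. Lrrc8b, a subunit of the volume-regulated anion channel, fell by 0.26 ± 0.05 (adjusted p = 0.0381). None of the 5 transporter genes, Slc40a1 included, kept its call without DMSO replicate 2 (adjusted p from 0.0682 to 0.135).

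**Figure D3:**
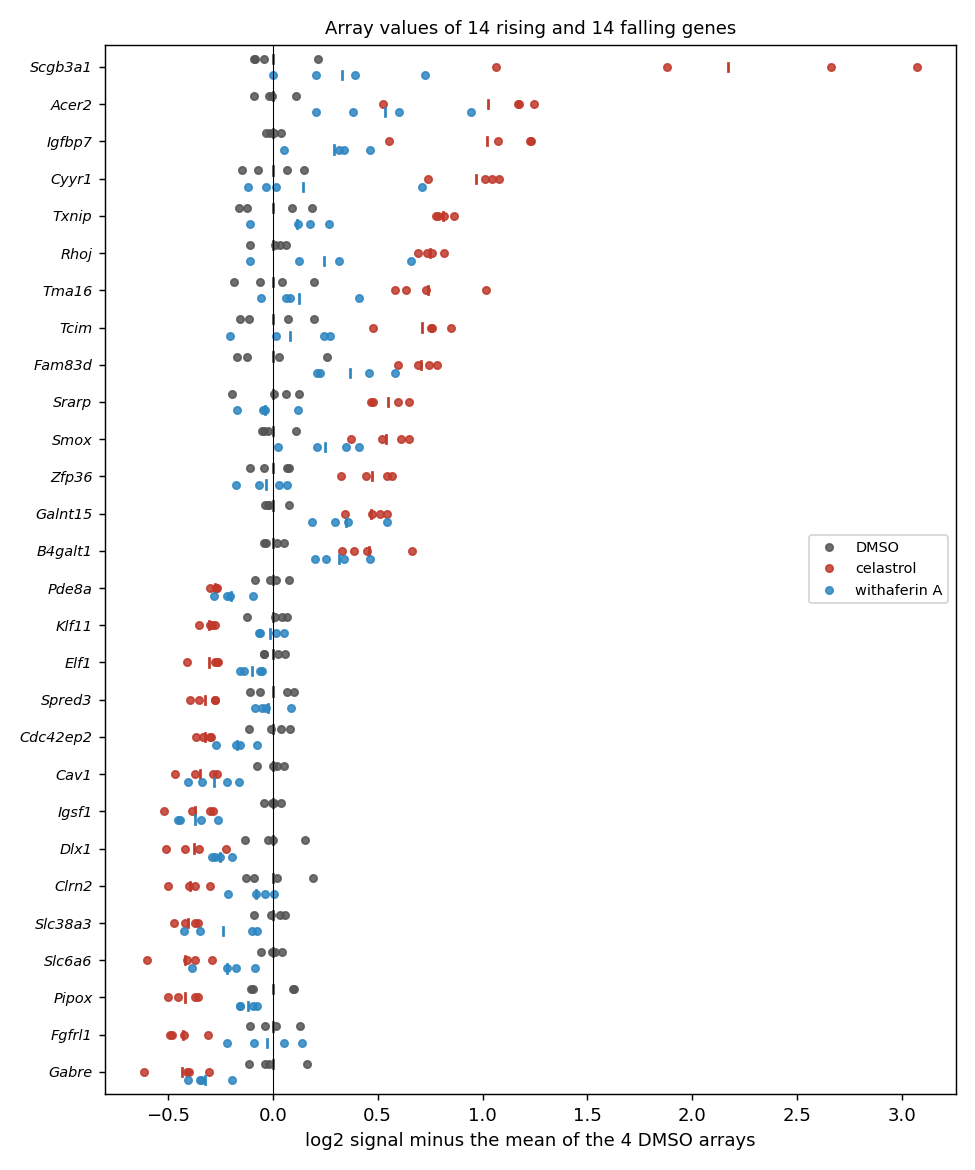
For 14 rising and 14 falling genes, points give the log2 signal of each array minus the mean of the 4 DMSO arrays, and vertical ticks give group means, for DMSO, celastrol and withaferin A (n = 4 arrays each). In every row the celastrol points lie to one side of the DMSO points, with the widest spread among celastrol arrays for Scgb3a1.

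Transcription and chromatin genes were the largest group among the falling genes, with 13 down and 5 up. Homeobox genes, which give neurons and glia their regional identity during development and stay on in adult cells, supplied 5 of the fallers from a list of 83 tested members. In that list 78 did not pass, 61 were below 0 and 22 above, and the median was −0.055. The list mean over DMSO was −0.05 to 0.08 on the DMSO arrays and −0.15 to 0.01 on the celastrol arrays, so the groups overlapped. Over all tested genes 0.314% fell, 57.4% lay below 0 and the median was −0.017. Dlx1, a factor of forebrain GABA neurons, had signals of 9.58, 9.43, 9.40 and 9.29 on the DMSO arrays and 9.20, 9.08, 8.92 and 9.01 on the celastrol arrays. The highest treated value was 0.09 below the lowest control, and Dlx1 fell by 0.37 ± 0.07 (adjusted p = 0.0326). Its neighbour and relative Dlx2 gave 8.60, 8.46, 8.32 and 8.42 with DMSO and 8.06, 8.11, 8.18 and 8.05 with celastrol. The groups were 0.14 apart at their nearest values, and Dlx2 fell by 0.35 ± 0.07 (adjusted p = 0.0433).

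Nkx6-2 and Nkx2-2 pattern the ventral neural tube and act in oligodendrocytes. The signal of Nkx6-2 was 8.83, 9.02, 9.12 and 8.92 on the DMSO arrays and 8.63, 8.51, 8.44 and 8.37 on the celastrol arrays, and that of Nkx2-2 was 7.78, 7.74, 7.75 and 7.78 with DMSO and 7.57, 7.29, 7.40 and 7.52 with celastrol. Both were lower on each treated array, by 0.49 ± 0.10 and 0.32 ± 0.07 (SE; adjusted p = 0.0381 and 0.0476). Lhx5, a LIM homeobox gene of the developing forebrain, fell by 0.36 ± 0.07 (adjusted p = 0.045). Prrx1, a paired-related homeobox gene that the list did not hold, fell by 0.35 ± 0.07 (adjusted p = 0.0401). With each array centred on its median, the median of the homeobox list was −0.0666, and with the pituitary score as a covariate it was −0.0552. Dlx2 lost its call with the arrays centred (adjusted p = 0.0674), and the other 4 listed genes kept theirs.

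Sox2, which maintains neural progenitors and is kept in tanycytes and astrocytes, gave 10.01, 9.90, 9.62 and 9.66 on the DMSO arrays and 9.20, 9.46, 9.35 and 9.44 on the celastrol arrays. Celastrol replicate 1 was the lowest and the nearest values of the groups were 0.16 apart. Sox2 fell by 0.43 ± 0.09 (adjusted p = 0.0431). Sox10, the oligodendrocyte lineage factor, fell by 0.39 ± 0.08 (adjusted p = 0.0433). Sox9, an astrocyte factor, had a change of −0.37 ± 0.08 (adjusted p = 0.063). Of 18 SOX genes tested, Sox2 and Sox10 fell, 16 did not pass, 16 were below 0 and the median was −0.15. The shares over all tested genes were 0.314% fallen and 57.4% below 0. None of the homeobox and SOX genes that fell kept its call without DMSO replicate 2.

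Krüppel-like factors moved in opposite directions. Klf11, a repressor linked to insulin gene control, gave 8.08, 8.24, 8.21 and 8.27 with DMSO and 7.90, 7.91, 7.85 and 7.93 with celastrol. The treated values lay within 0.08 of each other, and Klf11 fell by 0.30 ± 0.05 (adjusted p = 0.0245). Klf13 rose by 0.38 ± 0.07 (adjusted p = 0.0326), Klf9 was just outside the threshold with 0.34 ± 0.07 (adjusted p = 0.0518), and 17 of the 19 KLF and SP factors did not pass. Elf1, an ETS factor of blood and endothelial cells, gave 6.99, 6.93, 6.93 and 7.03 on the DMSO arrays and 6.56, 6.70, 6.69 and 6.71 on the celastrol arrays. Celastrol replicate 1 was the lowest of the treated arrays, and Elf1 fell by 0.30 ± 0.05 (adjusted p = 0.0229). Bahcc1, a chromatin protein gene, fell by 0.28 ± 0.06 (adjusted p = 0.045).

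Klf13 and 3 further transcription genes rose. Aff1, a scaffold of the transcription elongation complex, rose by 0.77 ± 0.14 (adjusted p = 0.0229), and its second probe set by 0.54 ± 0.16. Hr, the hairless corepressor of nuclear receptors, rose by 0.70 ± 0.13 (adjusted p = 0.0326), and Runx1, a factor of blood and microglia, by 0.38 ± 0.08 (adjusted p = 0.0431). Of the 18 genes in this group 1, Dbp, kept its call without DMSO replicate 2, where the adjusted p of the group ran from 0.0202 to 0.161.

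**Figure D4:**
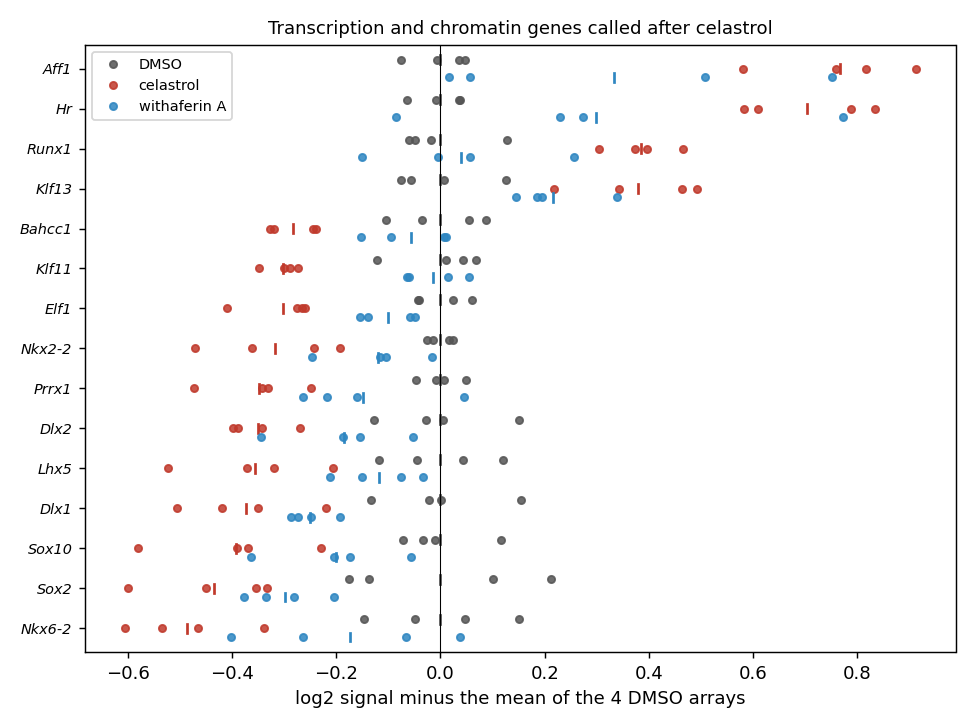
For 15 called transcription and chromatin genes, points give the log2 signal of each array minus the mean of the 4 DMSO arrays, and ticks give group means, for DMSO, celastrol and withaferin A (n = 4 arrays each). The 4 risers at the top reach changes up to 0.77, and the 11 fallers lie between −0.28 and −0.49.

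Immune and acute phase genes rose in 9 cases and fell in 5, and 4 of the risers are described here. Scgb3a1, a small secreted protein of the secretoglobin family known from airway epithelium, gave 6.70, 6.66, 6.95 and 6.65 with DMSO and 8.62, 9.81, 9.40 and 7.80 with celastrol. The treated arrays spread over 2.01 and lay above each control, the highest being celastrol replicate 2, which also had the highest pituitary score. The rise was 2.17 ± 0.32 (adjusted p = 0.0141), the second largest after Lcn2, and 1.87 without celastrol replicate 2. The pooled SE hides an uneven spread, with an SD of 0.145 for DMSO and 0.887 for celastrol. The part of the pituitary signal in this rise was not tested, as the covariate fit cannot fully separate it from treatment. In that fit the change was 1.62 (adjusted p = 0.163).

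Tlr7, a Toll-like receptor for single-stranded RNA, had signals of 5.59, 5.55, 5.10 and 5.78 on the DMSO arrays and 6.18, 6.32, 6.26 and 6.57 on the celastrol arrays. DMSO replicate 3 was the lowest control, and the groups were 0.40 apart at their nearest values. Its means with DMSO and withaferin A, 5.51 and 5.75, lie under the cut of 5.81, so Tlr7 entered the test through the celastrol arrays, and without the filter its adjusted p was 0.0419. Tlr7 rose by 0.83 ± 0.15 (adjusted p = 0.027), while Cd180, a Toll-like receptor homologue of B cells and microglia, fell by 0.92 ± 0.16 (adjusted p = 0.0191). The adaptor gene Myd88 had a change of 0.32 ± 0.07 (adjusted p = 0.0704), and 18 of 20 genes in the Toll-like receptor list did not pass. Mertk, a receptor kinase with which glia and macrophages take up dying cells, rose by 0.86 ± 0.17 (adjusted p = 0.0366). Ifna2 rose by 0.43 ± 0.07 (adjusted p = 0.0208), but interferon alpha genes are close copies that a probe set may not separate. Microglia markers gave no common rise: 2 of 15 fell, none rose, and the list mean was −0.05 to 0.07 on DMSO arrays and −0.24 to −0.03 on celastrol arrays.

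Kinase and receptor signalling genes rose in 8 cases and fell in 4. Map3k6 and Map2k6, kinases of stress-activated MAP kinase cascades, rose by 0.91 ± 0.17 and 0.37 ± 0.07 (adjusted p = 0.0325 and 0.0267). Spsb1, a substrate adaptor of ubiquitin ligases, rose by 0.52 ± 0.10 (adjusted p = 0.0381). Pde8a, a phosphodiesterase that degrades cyclic AMP, gave 8.64, 8.55, 8.47 and 8.57 with DMSO and 8.26, 8.29, 8.29 and 8.29 with celastrol. The treated values were almost identical, with 3 of them at 8.29, and Pde8a fell by 0.27 ± 0.05 (adjusted p = 0.0366). It was the one member to pass among 28 phosphodiesterases and adenylyl cyclases. Cdc42ep2, an effector of the GTPase Cdc42, had signals of 8.78, 8.63, 8.83 and 8.73 on the DMSO arrays and 8.45, 8.41, 8.38 and 8.44 on the celastrol arrays. The groups did not overlap, and the fall was 0.32 ± 0.06 (adjusted p = 0.0231). Wnt7a, a Wnt ligand with a known part in brain vessel formation, fell by 0.45 ± 0.09 (adjusted p = 0.0431), as the 1 called gene of 38 in the Wnt list. Ednrb, an endothelin receptor of astrocytes, fell by 0.36 ± 0.08 (adjusted p = 0.0488), close to the threshold. Hip1, Arhgef37 and Gpr179 rose by 0.31 to 0.60. None of these 12 genes kept its call without DMSO replicate 2 (adjusted p from 0.0619 to 0.149).

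The 4 called genes that were sorted, after their values were seen, under neuronal peptides, receptors and membrane proteins all fell. Gabre, the epsilon subunit of the GABA type A receptor, which is enriched in the hypothalamus, gave 9.83, 9.63, 9.65 and 9.55 with DMSO and 9.36, 9.25, 9.05 and 9.27 with celastrol. Celastrol replicate 3 was the lowest array and no treated value reached the controls. Gabre fell by 0.43 ± 0.08 (adjusted p = 0.0234). Igsf1, a membrane glycoprotein tied to control of the thyroid axis, gave 8.84, 8.79, 8.87 and 8.83 on the DMSO arrays and 8.44, 8.53, 8.31 and 8.55 on the celastrol arrays. The DMSO arrays were within 0.08 of each other, and Igsf1 fell by 0.37 ± 0.06 (adjusted p = 0.0191). Pnoc, the precursor of the opioid-like peptide nociceptin, fell by 0.38 ± 0.08 (adjusted p = 0.0431), and Oxt, the oxytocin gene, by 0.40 ± 0.07 (adjusted p = 0.0179). Neuron markers as a list did not pass in any of 13 members, with a list mean of −0.04 to 0.03 on DMSO arrays and −0.09 to −0.03 on celastrol arrays.

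Beside Opalin, genes of myelinating cells that fell were Gpr37, a receptor that restrains oligodendrocyte maturation, by 0.44 ± 0.09 (adjusted p = 0.0381), and Tmod1, which caps actin filaments, by 0.43 ± 0.09 (adjusted p = 0.0438). The second probe set of Tmod1 had a change of −0.32 ± 0.09. Of 19 oligodendrocyte markers 3 fell, Opalin, Gpr37 and Sox10, and 16 did not pass. Among the latter, Ugt8a had −0.47 ± 0.11 (adjusted p = 0.078) and Mobp 0.31 ± 0.08 (adjusted p = 0.127). Of the 19, 14 were below 0 and 5 above. The list mean was −0.03 to 0.03 on DMSO arrays and −0.20 to −0.15 on celastrol arrays, without overlap. The 3 called genes of this group lost their calls without DMSO replicate 2.

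The 3 called genes that were sorted, after their values were seen, under glycosylation and the secretory pathway all rose. Galnt15, which starts O-linked glycans, gave 6.80, 6.80, 6.79 and 6.90 with DMSO and 7.33, 7.17, 7.30 and 7.37 with celastrol. DMSO replicate 4 was the highest control and lay 0.27 below the lowest treated array. The rise was 0.47 ± 0.07 (adjusted p = 0.0158). B4galt1, which adds galactose to glycans, gave 6.70, 6.78, 6.68 and 6.75 on the DMSO arrays and 7.06, 7.12, 7.18 and 7.39 on the celastrol arrays. Celastrol replicate 4 was the highest, and the rise was 0.46 ± 0.08 (adjusted p = 0.0182). Fam20a, a secretory-pathway pseudokinase, rose by 0.34 ± 0.07 (adjusted p = 0.0369). Bcl2l1, which codes for the survival protein BCL-XL, rose by 0.34 ± 0.07 (adjusted p = 0.0433), and the metallothionein gene Mt1 by 0.45 ± 0.09 (adjusted p = 0.0458), while its neighbour Mt2 had 0.21 ± 0.07 (adjusted p = 0.27). None of these 5 kept its call without DMSO replicate 1 or 2.

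The remaining genes have no common function. Fam83d, a protein of the mitotic spindle, gave 6.18, 6.13, 6.56 and 6.33 with DMSO and 6.997, 6.90, 7.05 and 7.08 with celastrol. The lowest treated array was 0.34 above the highest control, and the rise was 0.71 ± 0.10 (adjusted p = 0.0141). Srarp, a regulator of steroid receptors described in breast tissue, gave 6.13, 6.07, 6.01 and 5.81 on the DMSO arrays and 6.60, 6.65, 6.48 and 6.47 on the celastrol arrays, a low signal near the cut of 5.81. The treated arrays were tightly grouped above the controls, and Srarp rose by 0.55 ± 0.08 (adjusted p = 0.0141). It lost its call without a single array only for DMSO replicate 2 (adjusted p = 0.0517). Proliferation genes as a list had 14 tested members, none of which passed, with a median of −0.0016.

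Cyyr1, a cysteine and tyrosine-rich membrane protein of unsettled function, gave 8.54, 8.25, 8.32 and 8.46 with DMSO and 9.14, 9.41, 9.44 and 9.48 with celastrol. The separation from the controls was 0.59, and the rise was 0.97 ± 0.15 (adjusted p = 0.0158). Tma16, a factor of ribosome assembly, gave 6.47, 6.70, 6.59 and 6.85 on the DMSO arrays and 7.29, 7.38, 7.24 and 7.67 on the celastrol arrays. Celastrol replicate 4 was the highest, and the rise was 0.74 ± 0.12 (adjusted p = 0.0158). Tcim, a small protein linked to Wnt signalling, gave 5.69, 5.50, 5.81 and 5.46 with DMSO and 6.10, 6.47, 6.37 and 6.37 with celastrol. Celastrol replicate 1 was the lowest treated array, 0.28 above the controls, and the rise was 0.71 ± 0.11 (adjusted p = 0.0158). Tcim, too, entered the test through the celastrol arrays, with means of 5.61 for DMSO and 5.70 for withaferin A, and without the filter its adjusted p was 0.025. Of the 115 called genes, these 2 did so. Clrn2, a tetraspan-like protein of hair cells, gave 5.997, 6.15, 6.32 and 6.03 on the DMSO arrays and 5.72, 5.82, 5.75 and 5.62 on the celastrol arrays, again near the cut. The values of the groups did not overlap, and Clrn2 fell by 0.39 ± 0.08 (adjusted p = 0.0366). Ccdc141, a centrosomal protein, rose by 0.72 ± 0.12 (adjusted p = 0.0208), and its 4 other probe sets had changes from 0.30 to 0.58. Fam107a, an actin-binding stress-response gene, rose by 0.50 ± 0.10 (adjusted p = 0.0366). Frmpd1, Ppil6 and Nt5dc2 rose by 0.56 ± 0.12, 0.46 ± 0.08 and 0.33 ± 0.07. Of the predicted genes, A730020M07Rik rose by 0.82 ± 0.14, 2310015D24Rik rose by 0.36 ± 0.06 and Gm5897 fell by 0.44 ± 0.07.

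**Figure D5:**
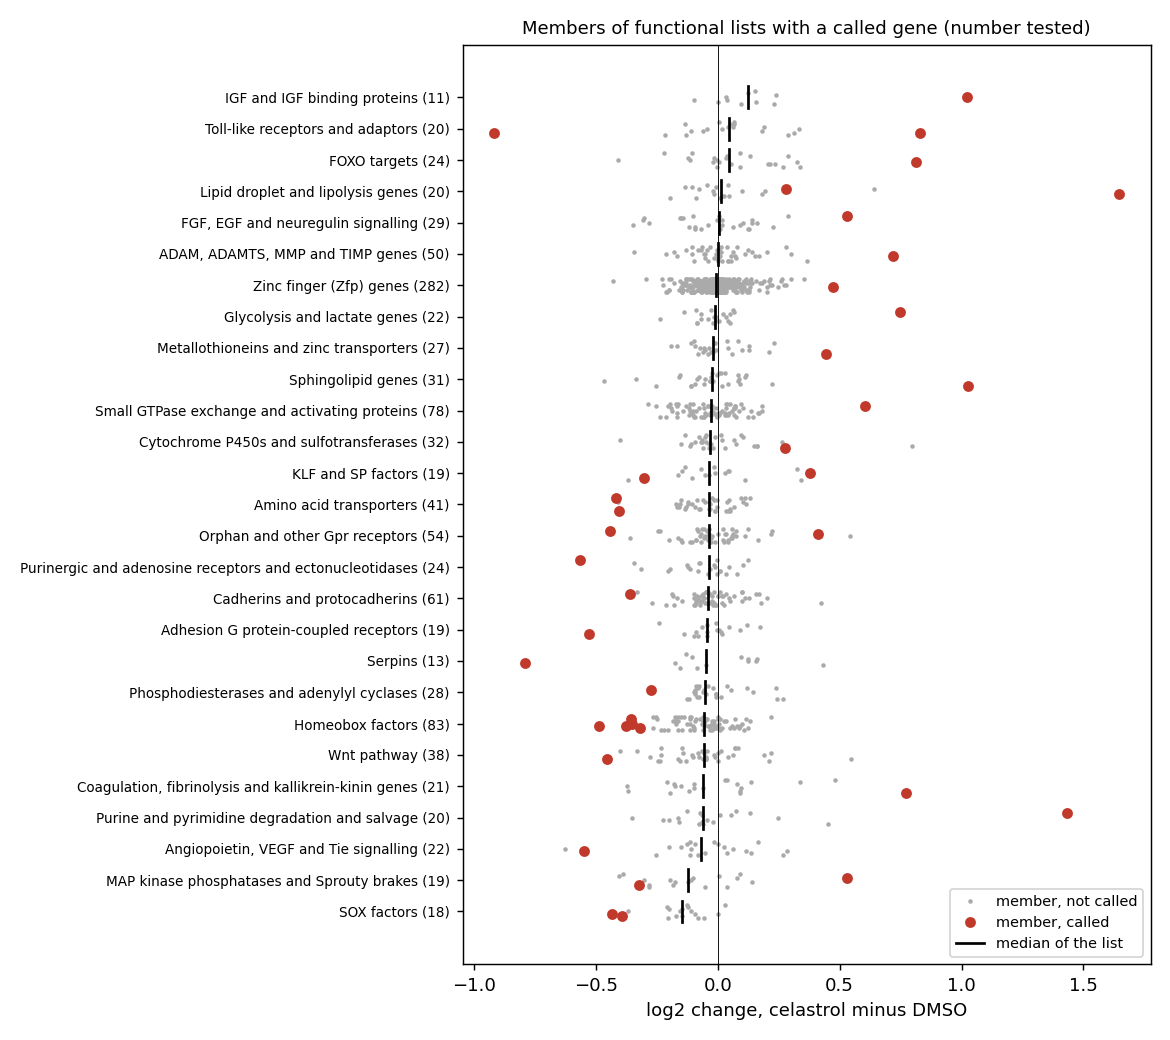
Points give the log2 change (celastrol minus DMSO) of each tested member of the 27 functional lists that held a called gene, with called members in colour and a tick for the list median; the number tested is in brackets. Medians lie between −0.15 for SOX factors and 0.13 for insulin-like growth factor genes, and in several lists an uncalled member had a change as large as a called one, such as Pnpla2 (0.64) beside Lipe (0.28).

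Across 59 functional lists with 2418 tested genes, 37 called genes appeared in 27 lists, and 32 lists held none. The share called over all tested genes was 0.769%. The lists were chosen with earlier results of these data known, so the count is only a description. List medians ran from −0.15 to 0.13. In 19 of the 27 lists a single member passed, as for Slc2a1 among glycolysis genes and Acer2 among sphingolipid genes. The genes just inside the threshold were Ednrb, Sgk3 and Gpr179 (adjusted p from 0.0488 to 0.0497), and those just outside were Irs4 with −0.31, Klf9 with 0.34 and Zfp626 with 0.35 (adjusted p = 0.0518).

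The promoters of called genes were searched for 6 motifs on both strands in the 250 bases before each start in RefSeq (GRCm38.p6), which held 57 of the 68 rising genes, 37 of the 47 falling genes and 11824 of all tested genes. The palindromic consensus bound by the glucocorticoid receptor and its relatives occurred in 1 rising promoter (1.75%), in no falling promoter and in 1 of the 11824 (0.00846%). That gene was Sgk1, a kinase that controls ion transport. Its signal was 8.86, 9.003, 9.31 and 9.61 with DMSO and 10.002, 10.10, 10.05 and 10.10 with celastrol, and it rose by 0.86 ± 0.17 (adjusted p = 0.0381). The window is shown because it was the one match among all tested genes, with the palindrome and a CACGTG motif in capitals (chr10:21993640-21993889, plus strand, 1 of several starts listed for the gene).
Sgk1 promoter: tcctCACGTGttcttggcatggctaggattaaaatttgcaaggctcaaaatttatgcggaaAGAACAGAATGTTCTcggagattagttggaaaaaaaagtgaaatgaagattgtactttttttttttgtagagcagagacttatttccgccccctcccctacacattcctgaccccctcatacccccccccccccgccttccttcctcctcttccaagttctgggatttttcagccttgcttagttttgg
TTCNNNGAA, the core bound by STAT proteins, was present in 8.77% of rising, 5.41% of falling and 7.03% of all promoters. CACGTG, an E-box, was present in 10.5%, 10.8% and 9.44%. TTATGTAA occurred in 1.75% of rising, none of the falling and 0.617% of all promoters. A consensus of the NF-κB factors and TTACGTAA were found in no called promoter, and in 0.203% and 0.169% of all. The shares among called genes thus stood near those of all genes except for single matches.

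Withaferin A, a steroidal lactone from another plant, was given at a dose by weight that differed from that of celastrol, and both treated groups share the same DMSO arrays, so their values are set side by side. The median change of the 68 risers was 0.70 after celastrol and 0.25 after withaferin A, and that of the 47 fallers was −0.42 and −0.17. The genes were selected on the celastrol contrast. Withaferin A versus DMSO gave no called gene in limma's test. It had 2352 genes at an unadjusted p under 0.05, and celastrol versus DMSO had 1561. In the direct contrast, which shares the celastrol arrays, 7 genes (0.0468%) were called, with 2413 at an unadjusted p under 0.05, and 6 of the 7 were among the 115. Txnip was lower after withaferin A than after celastrol by 0.70 ± 0.09, Srarp by 0.58 ± 0.08 and Zfp36 by 0.51 ± 0.07 (adjusted p = 0.0231, 0.0231 and 0.0238). Ch25h, Ppil6 and Podxl were also lower, by 1.34 ± 0.20, 0.54 ± 0.08 and 0.45 ± 0.07. The seventh was Ide, the insulin-degrading enzyme gene, which was higher after withaferin A by 0.73 ± 0.10 (adjusted p = 0.0231) and was not called for celastrol against DMSO. The count was 1 without celastrol replicate 2 or withaferin A replicate 2, and no gene passed without celastrol replicate 3 or withaferin A replicate 4 (2248 and 1718 genes at an unadjusted p under 0.05).

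The withaferin A arrays were uneven for these genes. Replicate 1 was the highest of the 4 in 42 of the 68 risers and the lowest in 32 of the 47 fallers. It lay nearer to the celastrol mean than to the DMSO mean in 88 of the 115 genes, against 22, 60 and 18 for replicates 2, 3 and 4. For Cyyr1 the withaferin A signals were 9.11, 8.28, 8.41 and 8.36, with replicate 1 alone near the celastrol arrays. For Rhoj they were 9.02, 8.48, 8.67 and 8.25. Txnip showed no such split, at 8.81, 8.76, 8.91 and 8.53. Igsf1 had signals of 8.39, 8.49, 8.57 and 8.38 after withaferin A, which overlapped those after celastrol (SE of the difference 0.06, adjusted p = 0.999).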

How the data were processed

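Per the labels, total RNA was biotin-labelled and hybridised to 1-colour Affymetrix arrays, 1 per mouse hypothalamus sample. The deposited values are log2 signals of 35556 probe sets that the authors made with RMA, per the submitters' processing notes (version and settings not given in the sources used here), so background correction and scaling across arrays were already applied and rest on the assumption that most genes do not differ. Array medians ran from 6.89 to 6.98. Of the probe sets, 21789 had 1 gene symbol, 1621 several and 12146 none in GEO's platform annotation, and those with several or none were left out. Where a gene had more than 1 (999 genes), the probe set of highest mean signal stood for it. Genes below the 25th percentile were left out as dim.

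A linear model of the 3 group means was fitted with limma 3.58.1 (R 4.3.3, lmFit and eBayes, two-sided) over the 12 arrays. p was adjusted by Benjamini-Hochberg over 14953 genes, with a threshold of 0.05. Errors are moderated SE of that fit, which pools the spread of the 3 groups over 9 residual degrees of freedom. limma draws this spread toward a value shared by all genes, with 4.44 prior degrees of freedom. The number of arrays limits the precision. In simulated data of the same size, 200 genes were changed and errors were independent. The fit called 82.8% of genes with a change of 0.5 and 99.6% of genes with a change of 1. False calls made up 5.39%. The simulation gave each gene the same spread in all groups and held no shifts shared by genes on an array. These rates may therefore not hold for the real arrays.

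Values on every array are given for the 14 rising and 14 falling called genes with the smallest p outside the 30 set aside, passing over predicted genes, small RNAs, names without lower-case letters and chemosensory receptors, and for some further called genes picked after their values were seen. Other called genes, and up to 2 uncalled members with the smallest p of a list, are named with their change. The genes set aside, the functional lists and the rules were chosen with earlier results of these data known, and the called genes were sorted into function groups after their values were seen, so these groups are descriptions. Plots were drawn with matplotlib 3.10.9.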

Additional observations from a re-analysis of the deposited data

Results flagged for a closer look

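Each of the 115 called genes was screened for a single array far from the other 3 of its group, in the DMSO and the celastrol group, 230 sets of 4 values in all. The gap to the nearest array exceeded Dixon's critical value in 9, and chance flags about 1 in 20 such sets. On DMSO arrays, Scgb3a1 was high on replicate 3 (6.95, the others 6.65 to 6.70) and Galnt15 on replicate 4 (6.90, the others 6.79 to 6.80). F3 was high on celastrol replicate 2 (10.89, the others 10.56 to 10.59), the array with the highest pituitary marker score, and Arhgef37 was low there (6.22, the others 6.41 to 6.44). On celastrol replicate 1, Elf1 was low at 6.56 and Pde8a at 8.26, both in the direction of their fall. On celastrol replicate 4, Acer2 was low at 8.42 and Plcd4 at 8.67, and Arsg was high at 7.89, each toward the DMSO values.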

How the results depend on the processing

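The direction of every called gene was the same under each alternative in which it was tested. Of 2496 gene values over 22 alternatives, 1490 stayed past the threshold, 1006 did not, and 0 reversed. In each called gene all celastrol values lay to 1 side of all DMSO values, so leaving out an array could not reverse a sign. The value counted for Runx1 under the 50th percentile filter (limma's adjusted p = 0.551) may be that of a similarly named gene. Counts of called genes moved far more than directions did. Against 115 genes (68 up, 47 down), 60 (43 and 17) passed without the filter on dim genes, 195 (96 down) with a robust prior that follows intensity, 219 (128 and 91) with array weights, 182 (121 up) in the 8 arrays of the compared groups, 212 (118 and 94) at a threshold of 0.10, and 5 probe sets (4 and 1) when every probe set was tested. Leaving out 1 array gave 6 to 207 genes, 4 to 116 up and 2 to 91 down. With the pituitary score as a covariate, added after the data were seen, 0 genes passed limma's test (0 up, 0 down). At an unadjusted p under 0.05 there were 1368, against 1561 in the main fit. The score differed between the groups, so this fit cannot fully separate it from treatment. The cause of these shifts was not tested. Quantile normalization, centring, the mean of probe sets, the 50th percentile filter and a minimum of 1.2-fold gave 108 to 142 genes. For withaferin A versus celastrol, the 7 genes became 11 without the filter, 13 at the 50th percentile, 12 with centred arrays, 29 with the trend, 19 with weights, 77 at 0.10 and 0 in 8 arrays (2363 at an unadjusted p under 0.05), and 0 to 56 with 1 array left out.

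With the replicate number as a block, 54 genes passed (40 up, 14 down), 53 of them among the 115. The numbers did not pair the samples: correlations of same-numbered deviations were −0.107, −0.014, 0.084 and −0.051, and no celastrol array matched its own number best. Of 1604 list medians, 1554 moved by less than 1 SD between replicates and 50 by more.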

Other observations

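Several functional lists had no called member. Of 81 translation initiation factors and tRNA synthetases none passed limma's test, and their changes ran from −0.13 to 0.17 with a median of −0.020. The 124 F-box and BTB ubiquitin ligase adaptors (median −0.019), 121 TRIM, RNF and MARCH ubiquitin ligases (−0.012), 58 deubiquitinases (−0.031), 53 splicing factors (−0.014) and 35 autophagy genes (0.011) likewise held no called gene. Among inflammatory families, 25 chemokine and chemokine receptor genes had a median of 0.016 and 24 tumour necrosis factor ligands and receptors one of −0.016, with no called member. The 23 targets of the amino acid starvation factor ATF4 had a median of −0.018 and the 33 glutathione enzymes one of −0.055. None of 37 nuclear receptor genes passed, with a median of −0.065. The members with the smallest p were Nr2f2 with −0.28 ± 0.07 (adjusted p = 0.0831) and the clock component Nr1d1 with −0.35 ± 0.08 (adjusted p = 0.09). A list without a called gene is not shown to be unchanged.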
